A study of Homo sapiens with 14 samples.

Results

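The clone EM2 was set against the clones EM1 and EM3, all derived from the human breast cancer line SUM149PT, by the accessibility of their chromatin. The data were the 6 libraries of these clones, 2 of EM2, 2 of EM1 and 2 of EM3, out of 14 in the series, and a region was taken to differ in EM2 when it differed in the same direction from EM1 and from EM3. SUM149PT is a long-used cell line of inflammatory breast cancer that lacks the receptors for oestrogen and progesterone, per the labels. No group was treated, and each clone name stands for 1 clonal line, so a value of EM2 is that of a single clone and not of intermediate cells in general. The other groups were the clones M1, M2 and E and the unselected line, called Parental, with 2 libraries each. The labels do not spell out the letters of the clone names, and the title of the study speaks of an intermediate state.

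In the epithelial-mesenchymal transition (EMT), epithelial cells loosen their junctions and take on features of migratory, matrix-making cells, and cells can rest in intermediate states that carry features of each end. E-cadherin, the product of CDH1, holds epithelial cells together, and ELF3 and EHF are ETS transcription factors of epithelial cells. TEK encodes TIE2, a receptor tyrosine kinase for angiopoietins that is best known from endothelial cells. ATAC-seq measures open chromatin through a transposase that inserts sequencing adapters where DNA is accessible, so active promoters and enhancers give many reads and closed or missing DNA gives few.

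The deposited table gave raw counts in 65774 regions, typically 407 bp wide (median), and the 6 libraries held 9657810 (EM3 replicate 2) to 16786823 counts (EM3 replicate 1). Levels are library-scaled counts after TMM (CPM), and the threshold for a call was an adjusted p of 0.05 in edgeR's quasi-likelihood test with Benjamini-Hochberg adjustment over 65771 regions. Changes are log2 ratios of EM2 over the other clone, with their standard errors (SE). Whether replicate libraries were grown separately is not stated in the labels, and the p-values therefore reflect only how far these libraries differ, which may be technical. Because a library pools many cells, fewer cells with an open region, less opening per cell and fewer copies of the DNA cannot be told apart. E replicate 1 stood apart from its group (it correlated at 0.54 with each M2 library across regions, against 0.35 and 0.36 for E replicate 2), and results that rest on it are given with and without it.

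EM2 differed from each of the other EM clones at many regions, and EM1 and EM3 hardly differed from each other. EM2 versus EM1 gave 8030 called regions (12.2% of those tested), 2799 higher in EM2 (4.26%) and 5231 lower (7.95%). EM2 versus EM3 gave 7741 (11.8%), 2742 higher (4.17%) and 4999 lower (7.6%), and EM3 versus EM1 gave 31 (0.0471%), 16 higher in EM3 (0.0243%) and 15 lower (0.0228%). The last count was 220 with DESeq2, 7 without EM1 replicate 1, 6 without EM1 replicate 2, EM3 replicate 1 or EM3 replicate 2, and 85 without E replicate 1. The same test run on EM2 against the mean of EM1 and EM3 called 11236 regions (17.1%), 4556 higher (6.93%) and 6680 lower (10.2%). The comparisons of EM2 share its 2 libraries, so they are not independent. All counts come from a fit over the 14 libraries.

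At 5754 regions (8.75%) EM2 differed in the same direction from both clones, and these are called agreed regions below. EM2 was higher at 1793 of them (2.73%) and lower at 3961 (6.02%), and 2 regions (0.00304%) were called in opposite directions. The smaller of the 2 changes was at least 2-fold at 927 higher and 3480 lower regions and at least 4-fold at 374 and 1348. The median change over all regions was 0.0 against EM1 and -0.01 against EM3. Across regions, which are not replicates, group means of log2 CPM correlated at 0.88 between EM2 and EM1, 0.88 between EM2 and EM3, and 0.97 between EM1 and EM3. Each of the 6 libraries carried weight in these calls. The count of EM2 agreed against EM1 and EM3 was 2297 without EM2 replicate 1, 3651 without EM2 replicate 2, 3553 without EM1 replicate 1, 3140 without EM1 replicate 2, 3440 without EM3 replicate 1 and 2571 without EM3 replicate 2. At all agreed regions the EM2 libraries lay outside the range of the other 4, so leaving out a library could end a call but not turn its direction. Lack of overlap thus came with every agreed call and, where it is named below, is a description and no support beyond the call. Its share over all regions is not given here.

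The largest excesses of signal in EM2 over EM1 and EM3 were at TBX3 and at genes of the short arm of chromosome 9. The 10 largest were taken by the smaller of the 2 changes among agreed regions without overlap between EM2 and the 4 other libraries. They had a signal above the median and lay no more than 10 kb from a gene end, and 1 region was kept per gene. TBX3 is a T-box transcription factor of mammary development. A region overlapping an end of the gene (chromosome 12, 114684075 to 114684968) stood at 76.8 and 73.3 CPM in EM2, 1.78 and 1.39 CPM in EM1, and 0.753 and 0.907 CPM in EM3. Both EM2 libraries lay far above all 4 others. The log2 change was 5.57 against EM1 (SE 0.46, adjusted p 3.6e-05) and 6.51 against EM3 (SE 0.50, adjusted p 2.6e-05). Among the other groups, M1 had 72.1 and 75.8 CPM at this region and Parental had 19.2 and 17.3 CPM.

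On chromosome 9, regions at CAAP1, which encodes an inhibitor of apoptosis, at TUSC1, a candidate tumour suppressor, and 8936 bp from PLAA, in the promoter window of IFT74, were among the 10. The CAAP1 region (26892264 to 26892971) had 20 and 19.9 CPM in EM2, and no count in any of the 4 libraries of EM1 and EM3. EM2 was therefore at least 170-fold higher than EM1 and at least 181-fold higher than EM3, with a floor of 3 counts over each clone. The TUSC1 region (25678190 to 25678721) had 20.1 and 18.8 CPM in EM2, 0 in both EM1 libraries, and 0.0579 and 0 CPM in EM3. It was at least 166-fold higher than in EM1, and 529-fold higher than in EM3 with a 95% exact interval of 94.5 to 20900, which covers counting error only. These regions lie in a run of 29 regions of chromosome 9 where EM1 and EM3 had almost no signal, described with TEK below. Whether EM1 and EM3 hold this DNA was not tested, so the differences are of signal and not of opening in EM2.

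GALNT15, an enzyme of mucin-type O-glycosylation, had a region over its promoter (chromosome 3, 16174324 to 16174748) at 21.0 and 18.9 CPM in EM2, 2.14 and 1.74 CPM in EM1, and 3.94 and 3.32 CPM in EM3. The log2 changes were 3.36 (SE 0.37, adjusted p 0.00015) against EM1 and 2.44 (SE 0.34, adjusted p 0.00078) against EM3. A region 48 bp from DPF3, a subunit of a chromatin-remodelling complex, had 21.3 and 21.4 CPM in EM2, 1.69 and 1.19 CPM in EM1, and 1.85 and 1.01 CPM in EM3, with changes of 3.90 and 3.83. In both, the EM2 libraries were above every EM1 and EM3 library, and M1 was higher still, at 41.6 and 31.6 CPM at GALNT15 and 38.3 and 36.9 CPM at DPF3.

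Other gains rested more on single libraries. The call near POU5F1B ended on leaving out any 1 of 5 libraries (EM2 replicate 1 and both libraries of EM1 and EM3; largest adjusted p 0.15), that inside RAB40C on leaving out any 1 library of EM1 or EM3 (0.083), and that near HNRNPA1L3 without EM3 replicate 2 (0.057). With all libraries, the changes were 3.22 and 2.83 near POU5F1B, 2.90 and 3.31 inside RAB40C, and 3.78 and 3.23 near HNRNPA1L3.

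Promoter windows are shown for TUSC1 and GALNT15, whose regions rose, and for CHI3L1, whose region fell, because all 3 were called under every setting tried. They are RefSeq sequences of GRCh38.p14, from 250 bases before to 50 after a gene start, on the strand of the gene. The TUSC1 window is chr9:25678395-25678694 on the minus strand, that of GALNT15 is chr3:16174430-16174729 on the plus strand, and that of CHI3L1 is chr1:203186655-203186954 on the minus strand. Capitals mark letters searched on both strands: TGANTCA (AP-1), TGTGGT (RUNX), CACCTG (the E-box bound by ZEB and SNAI factors), GGAATG (TEAD) and AACCNGTT (grainyhead). No matches overlapped in the windows shown.
TUSC1: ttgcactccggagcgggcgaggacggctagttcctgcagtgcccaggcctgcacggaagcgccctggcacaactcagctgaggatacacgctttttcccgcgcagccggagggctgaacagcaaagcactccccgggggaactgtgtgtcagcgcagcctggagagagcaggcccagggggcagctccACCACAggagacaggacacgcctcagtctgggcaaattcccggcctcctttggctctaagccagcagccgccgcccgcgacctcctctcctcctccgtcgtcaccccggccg
GALNT15: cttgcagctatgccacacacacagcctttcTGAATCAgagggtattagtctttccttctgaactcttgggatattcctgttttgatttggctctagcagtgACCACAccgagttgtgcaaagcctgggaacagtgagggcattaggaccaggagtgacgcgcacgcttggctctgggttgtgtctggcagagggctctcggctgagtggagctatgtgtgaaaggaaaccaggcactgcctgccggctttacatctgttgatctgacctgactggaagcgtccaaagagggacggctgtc
CHI3L1: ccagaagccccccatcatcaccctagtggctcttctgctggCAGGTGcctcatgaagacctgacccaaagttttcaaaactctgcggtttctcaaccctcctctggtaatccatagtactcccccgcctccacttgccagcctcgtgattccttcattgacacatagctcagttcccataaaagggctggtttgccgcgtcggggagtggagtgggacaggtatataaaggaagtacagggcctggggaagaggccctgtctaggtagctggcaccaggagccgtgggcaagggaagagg
The GALNT15 window held 1 AP-1 and 1 RUNX match, the TUSC1 window 1 RUNX match and the CHI3L1 window 1 E-box match. The TUSC1 window was the richest in G and C, at 67.0%, against 53.3% for GALNT15 and 56.0% for CHI3L1.

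The largest losses in EM2 left regions with signal in EM1 and EM3 at a few CPM or less. CHI3L1 encodes a secreted chitinase-like glycoprotein. The region over its promoter (chromosome 1, 203186483 to 203187287) had 4.32 and 3.90 CPM in EM2, 49.6 and 42.7 CPM in EM1, and 41.7 and 39.6 CPM in EM3. The changes were -3.49 (SE 0.27, adjusted p 2.7e-05) and -3.30 (SE 0.27, adjusted p 3.9e-05), and M1 stood lower still at 2.13 and 0.793 CPM, against 37.1 and 29.4 CPM in Parental. A region inside JRK, which encodes a DNA-binding protein related to a transposase, had 0.462 and 0.312 CPM in EM2, 26.4 and 14.6 CPM in EM1, and 21.1 and 16.5 CPM in EM3, the largest fall among the 10 (-5.68 and -5.57).

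Other losses were at ends of genes. ZNF44, a zinc finger gene, had 0.462 and 0.468 CPM in EM2, 10.4 and 8.85 CPM in EM1, and 9.38 and 9.47 CPM in EM3, with changes of -4.34 and -4.31. SLCO4C1, an organic anion transporter, had 1.85 and 0.312 CPM in EM2, 24.4 and 14.2 CPM in EM1, and 15.5 and 10.8 CPM in EM3 (-4.13 and -3.59). In M1 versus Parental neither region passed (-0.28, adjusted p 0.55 at ZNF44; -0.54, adjusted p 0.31 at SLCO4C1). The regions near NRROS (-4.92 and -4.83), inside TRIT1, a tRNA-modifying enzyme (-3.91 and -3.96), near APCS (-3.80 and -4.11), inside RAD51AP2 (-3.62 and -3.60) and inside SRRD (-3.47 and -3.59) were called under every setting tried. The region inside UBE2J2, a ubiquitin-conjugating enzyme, fell by 3.69 and 3.78 on the log2 scale, and its call ended without EM2 replicate 1 (largest adjusted p 0.061).

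**Figure D1:**
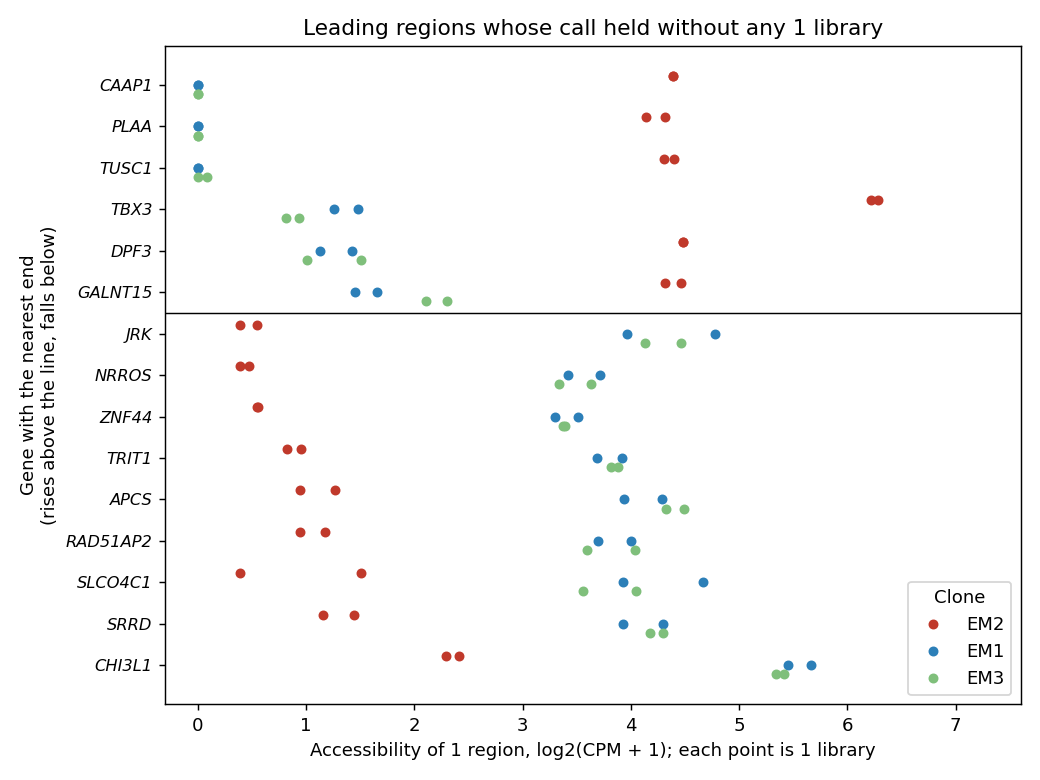
Accessibility of the leading regions whose call held on leaving out any 1 of the 6 libraries, as log2(CPM + 1) on the horizontal axis, with 1 point per library and the gene with the nearest end on the vertical axis. In each row the 2 EM2 libraries lie apart from the 4 libraries of EM1 and EM3, on the high side in the 6 rows above the line and on the low side in the 9 rows below it.

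CDH1, ELF3 and TEK, named as markers of this comparison, behaved in 3 different ways. At CDH1 (10 regions on chromosome 16), EM2 was lower at 3 agreed regions within the gene, in a 10 Mb window where 19.7% of all regions were agreed and lower (6.02% overall), and the region overlapping an end of it did not pass. The region at 68737079 to 68737557, which overlaps an end of the gene, had 22.1 and 23.1 CPM in EM2, 24.7 and 23.8 CPM in EM1, and 17.4 and 19.6 CPM in EM3, so the clones did not separate there. The largest agreed change was at 68760621 to 68761258, 23329 bp from a gene end, with 25.3 and 13.6 CPM in EM2, 61.3 and 48.0 CPM in EM1, and 47.0 and 45.3 CPM in EM3. EM2 was below all 4 other libraries, and the changes were -1.49 (SE 0.25, adjusted p 0.0019) and -1.25 (SE 0.25, adjusted p 0.006).

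The region at 68778493 had changes of -1.61 (adjusted p 0.0015) and -1.04 (adjusted p 0.021), but its call ended without EM2 replicate 1, EM2 replicate 2 or EM3 replicate 2 (largest adjusted p 0.22) and after removal of the window median (0.089). That at 68741942 (-0.77 and -0.88) was lost on leaving out any 1 of the 6 libraries (largest adjusted p 0.25), with loess offsets (0.071) and without the window median (0.19). Summed over the 10 regions, CDH1 had 188.0 and 176.0 CPM in EM2, 311.0 and 299.0 CPM in EM1, 257.0 and 283.0 CPM in EM3, 45.9 and 41.6 CPM in M1, and 358.0 and 312.0 CPM in Parental. EM2 thus lay between M1 and the other EM clones, and 8 of the 10 regions were called lower in M1 versus Parental.

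ELF3 had 7 regions, of which 1 was agreed and lower in EM2. At 202046252 to 202047424 on chromosome 1, 29069 bp outside the gene, EM2 had 8.71 and 7.17 CPM, EM1 had 37.2 and 28.0 CPM, and EM3 had 27.4 and 23.6 CPM. The changes were -2.03 (SE 0.25, adjusted p 0.00026) and -1.68 (SE 0.25, adjusted p 0.00097). At the promoter the groups were close, with 39.3 and 33.0 CPM in EM2, 49.1 and 44.1 CPM in EM1, and 42.3 and 41.4 CPM in EM3 (-0.37, adjusted p 0.22; -0.21, adjusted p 0.51). Over the 7 regions both changes were negative, the values running from -2.03 to -0.37 against EM1 and from -1.68 to -0.17 against EM3. The surrounding 10 Mb window had medians of -0.49 and -0.53.

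EHF, the ETS factor related to ELF3, had 12 regions, 3 of them agreed and lower in EM2. The region over a promoter window (chromosome 11, 34624133 to 34624410) had 0.54 and 0.156 CPM in EM2, 13.3 and 11.6 CPM in EM1, and 2.2 and 1.21 CPM in EM3. Here EM3 was also low: EM3 versus EM1 changed by -2.81 (adjusted p 0.044), which made this region 1 of the 31 called between them. The change in EM2 was -5.11 against EM1 (SE 0.51, adjusted p 0.00011) and -2.30 against EM3 (SE 0.55, adjusted p 0.018).

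A second EHF region, 71 bp from a gene end, had 1.93 and 1.87 CPM in EM2, 9.88 and 21.1 CPM in EM1, and 5.27 and 10.3 CPM in EM3 (-3.03, adjusted p 0.0015; -2.01, adjusted p 0.018). The calls against EM3 at the 3 EHF regions were not secure. At the promoter window the call ended with loess offsets (adjusted p 0.081) and without EM2 replicate 2 or EM3 replicate 1 (largest adjusted p 0.16). At the gene-end region it ended with loess offsets (0.086) and without EM2 replicate 1, EM2 replicate 2 or EM3 replicate 2 (0.15), and at 34668104 with loess offsets (0.053) and without EM2 replicate 1, EM2 replicate 2, EM1 replicate 2 or EM3 replicate 2 (0.19). In M1 versus Parental the log2 changes of the 3 EHF regions were -4.10, -4.25 and -4.06.

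The promoter windows of these ETS factors are shown side by side because the region over the EHF window was called lower in EM2 and that over the ELF3 window was not called. They are RefSeq sequences of GRCh38.p14 on the plus strand, chr11:34624007-34624306 for EHF and chr1:202010337-202010636 for ELF3, with capitals for the same letters as above.
EHF: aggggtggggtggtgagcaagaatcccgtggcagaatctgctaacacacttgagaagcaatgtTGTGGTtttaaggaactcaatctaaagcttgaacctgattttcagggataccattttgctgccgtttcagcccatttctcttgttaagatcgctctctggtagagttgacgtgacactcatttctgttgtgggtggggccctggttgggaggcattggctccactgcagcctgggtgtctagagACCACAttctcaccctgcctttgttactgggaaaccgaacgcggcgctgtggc
ELF3: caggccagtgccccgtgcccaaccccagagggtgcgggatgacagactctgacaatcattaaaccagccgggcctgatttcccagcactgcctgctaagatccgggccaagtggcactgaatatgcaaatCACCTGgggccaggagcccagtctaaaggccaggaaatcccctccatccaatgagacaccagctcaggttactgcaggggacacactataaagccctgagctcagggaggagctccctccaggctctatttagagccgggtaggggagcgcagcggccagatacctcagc
The EHF window held 2 RUNX matches, with 51.3% G and C, and the ELF3 window 1 E-box match, with 59.0% G and C. The RUNX letters occurred in 9.48% of the 11274 promoter windows with a tested region and the E-box letters in 18.1%.

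TEK gave the opposite picture. All 8 of its regions on chromosome 9 were agreed and higher in EM2, with 1835 counts in EM2, 0 in EM1 and 2 in EM3. The region inside the gene at 27219782 to 27220271 had 17.1 and 10.4 CPM in EM2 and no count in EM1 or EM3, so that EM2 was at least 117-fold higher than EM1 and at least 125-fold higher than EM3 (floor of 3 counts over each clone). At 27125042 to 27125487, EM2 had 10 and 14.4 CPM and EM1 and EM3 again had no count. The 8 TEK regions summed to 72.6 and 69.6 CPM in EM2, 0 in both EM1 libraries, 0.0579 and 0.101 CPM in EM3, 67.8 and 74.3 CPM in M1, and 0.0907 and 0.679 CPM in Parental. Of the 51 regions of the 18 endothelial markers (15 of them with a region), 8 were agreed and higher (15.7%, beside 2.73% of all regions). These 8 were those of TEK, and 2 regions were agreed and lower (3.92%, beside 6.02% of all).

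**Figure D2:**
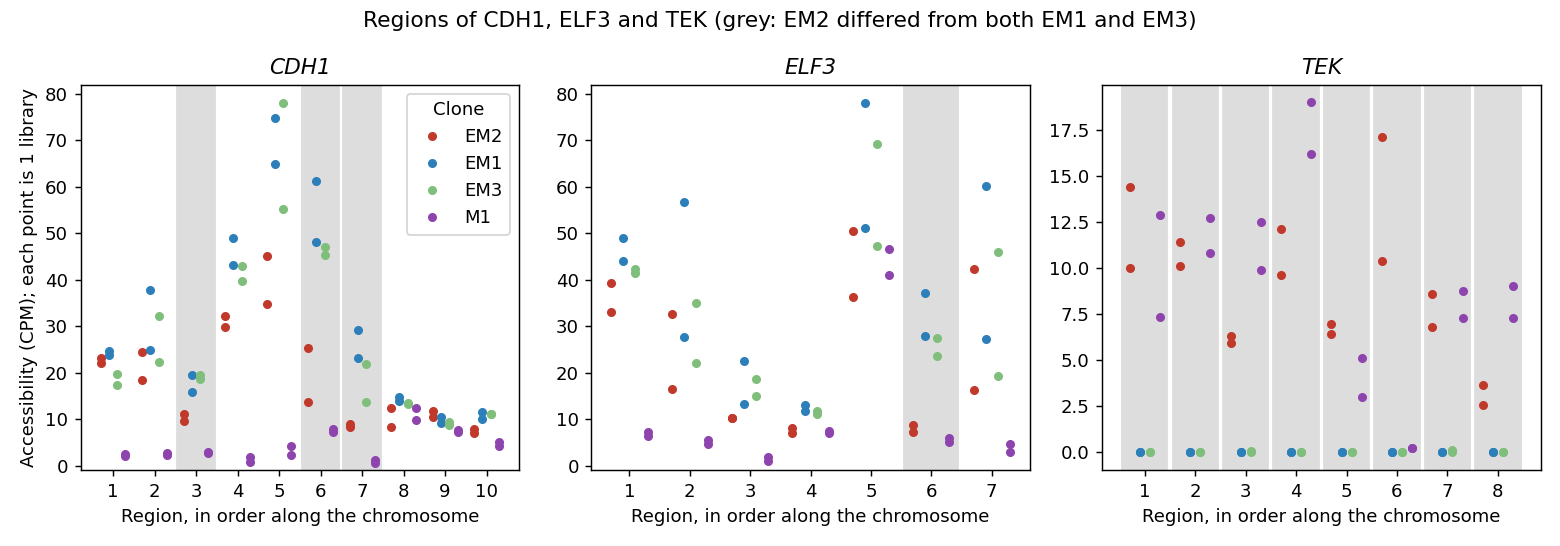
Accessibility in CPM at the regions of CDH1, ELF3 and TEK, numbered along the chromosome on the horizontal axis, with 1 point per library of EM2, EM1, EM3 and M1 and grey bands where EM2 differed from both EM1 and EM3. EM2 lies below EM1 and EM3 in the 3 grey bands of CDH1 and the 1 of ELF3, and EM1 and EM3 lie at or near 0 at all 8 regions of TEK.

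At the ends of a panel of 35 genes of EMT and epithelial identity, EM2 differed little from EM1 and EM3. A region within 1 kb of a gene end was measured for 27 of them, and for TEK, OVOL1, ESRP2, KRT17, TP63, CDH2, ZEB2 and RUNX1 there was none. EHF was the 1 gene of the panel with an agreed change, beside 8.75% of all regions. FN1, the matrix protein fibronectin, had 40.5 and 25.3 CPM in EM2, 20.8 and 12.5 CPM in EM1, and 23.4 and 12.9 CPM in EM3, and was called against EM1 (0.99, adjusted p 0.049) but not against EM3 (0.84, adjusted p 0.089). In M1 versus Parental, 12 of the 27 were called lower (23.4% of all regions). The epithelial genes GRHL2 (-0.47 and 0.01), ESRP1 (-0.09 and 0.00), EPCAM (-0.46 and -0.34), CLDN4 (0.01 and 0.31) and OVOL2 (-0.35 and -0.50) did not pass in EM2 versus EM1 or EM3, and fell in M1 versus Parental, where the changes of these 5 were -5.70, -3.57, -2.36, -3.54 and -3.29 in that order. The mesenchymal genes VIM (0.57 and 0.35), ZEB1 (0.19 and 0.25), SNAI2 (0.26 and 0.39) and TWIST1 (0.23 and 0.15) did not pass either.

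Among regions of junction genes at any distance, the share lower in EM2 was near that of all regions. Of the 102 regions of 28 genes of epithelial adhesion and identity (26 with a region), 8 were agreed and lower (7.84%, beside 6.02% of all regions) and 0 higher, with median changes of -0.27 and -0.20. CDH1 had 3 of the 8. A region 16338 bp outside CLDN1, which encodes a tight junction claudin, had 1.39 and 2.26 CPM in EM2, 5.88 and 4.46 CPM in EM1, and 5.62 and 6.85 CPM in EM3 (-1.49, adjusted p 0.018; -1.76, adjusted p 0.0081). EM2 was below all 4 other libraries there. Its call ended without EM2 replicate 1, EM1 replicate 1 or EM3 replicate 2 (largest adjusted p 0.17), with loess offsets (0.084) and after removal of the window median (0.25).

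Of the 115 regions of 23 desmosome and hemidesmosome genes, 7 were agreed and lower (6.09%, beside 6.02% of all regions) and 0 higher (2.73% of all), with medians of -0.25 and -0.16. They included a region inside DSC1, a desmosomal cadherin, with 2.62 and 2.18 CPM in EM2, 9.61 and 9.76 CPM in EM1, and 7.01 and 7.86 CPM in EM3 (-2.01 and -1.62). The call at DSC1 ended without EM2 replicate 1, EM2 replicate 2 or EM3 replicate 2 (largest adjusted p 0.067). DSC1 lies on chromosome 18, where 6 windows of 10 Mb had lower medians in EM2. Of 113 regions of epithelial transcription and splicing factors, 2 were agreed and higher (1.77%) and 5 lower (4.42%), with medians of -0.07 and 0.01. Keratins had 1 higher (1.92%) and 2 lower (3.85%) of 52 regions, and basal and p63-linked genes 6 higher (5.83%) and 4 lower (3.88%) of 103, with medians between 0.01 and 0.05. Over all regions the shares were 2.73% higher and 6.02% lower.

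Of the 39 regions of 16 luminal genes, 8 were agreed and higher (20.5%, beside 2.73% of all regions) and 2 lower, with median changes of 0.11 and 0.10. TBX3 had 2 of the 8: the region described above and a second, 1689 bp outside the gene. The further regions of TBX3 and of EHF were looked up after values were seen. The second TBX3 region had 11.3 and 12.9 CPM in EM2, 3.56 and 1.88 CPM in EM1, and 5.10 and 5.14 CPM in EM3 (2.16 and 1.24). Its call ended without EM2 replicate 1, EM2 replicate 2, EM3 replicate 1 or EM3 replicate 2 (largest adjusted p 0.12).

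Of 176 regions of 27 mesenchymal effectors, 8 were agreed and higher (4.55%, beside 2.73% of all regions) and 8 lower (4.55%, beside 6.02%), with medians of 0.07 and 0.04. LOXL2, a collagen-crosslinking enzyme, had a region inside the gene on chromosome 8 (23303946 to 23304421) at 11.6 and 10.7 CPM in EM2, 0.623 and 0.349 CPM in EM1, and 0.579 and 0.403 CPM in EM3 (4.53, SE 0.58, adjusted p 0.00039; 4.43, SE 0.57, adjusted p 0.00045). EM2 stood clear of both clones, as did M1 (18.5 and 15.8 CPM) of Parental (0.453 and 0.848 CPM). It was 1 of 13 LOXL2 regions and the only agreed region among them.

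CDH2 and CDH11, cadherins of mesenchymal cells, had agreed regions that were lower in EM2. A region 10410 bp outside CDH2, which encodes N-cadherin, had 0.617 and 0.234 CPM in EM2, 22.1 and 11.1 CPM in EM1, and 12.7 and 8.16 CPM in EM3 (-5.24, SE 0.66, adjusted p 0.00035; -4.59, SE 0.67, adjusted p 0.00094). A region inside CDH11 had 0.848 and 0.234 CPM in EM2, 7.66 and 8.23 CPM in EM1, and 7.24 and 7.05 CPM in EM3 (-3.85 and -3.70). CDH2 had 2 agreed lower regions of 3 and CDH11 had 3 of 5, beside 6.02% of all regions. The 10 Mb window of CDH2, on chromosome 18, had medians of -0.54 and -0.55 with 16.3% of its regions agreed and lower, and that of CDH11 had medians of -0.18 and -0.27 with 19.7%. In M1 versus Parental the same CDH2 region rose by 1.40 (adjusted p 0.035) and the CDH11 region fell by 1.36 on the log2 scale (adjusted p 0.029).

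Among EMT transcription factors, 3 of 65 regions were agreed and higher (4.62%, beside 2.73% of all regions) and 1 lower (1.54%, beside 6.02%), with medians of 0.12 and 0.13. MSX1, a homeobox factor, had a region over its promoter at 15.4 and 17.2 CPM in EM2, 5.43 and 5.16 CPM in EM1, and 7.35 and 4.53 CPM in EM3 (1.62, SE 0.25, adjusted p 0.0011; 1.43, SE 0.24, adjusted p 0.0024). TWIST2, a bHLH factor, had the other 2. Its promoter region stood at 22.7 and 17.7 CPM in EM2, 9.79 and 8.30 CPM in EM1, and 10.2 and 8.66 CPM in EM3 (1.16 and 1.09). That call ended without EM2 replicate 1, EM1 replicate 2 or EM3 replicate 2 (largest adjusted p 0.088).

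Of 127 regions of collagens and matrix proteases, 3 were agreed and higher (2.36%, beside 2.73% of all regions) and 1 lower (0.787%, beside 6.02%). COL5A1, a fibrillar collagen chain, had 3.16 and 5.30 CPM at its promoter in EM2, 0.445 and 0.0697 CPM in EM1, and 0.637 and 0.504 CPM in EM3 (4.09, SE 0.52, adjusted p 0.00037; 2.84, SE 0.45, adjusted p 0.0015). M1 had more, at 15.8 and 14.7 CPM. A region inside COL4A2, a basement membrane collagen, had 2.62 and 2.26 CPM in EM2, 6.86 and 9.13 CPM in EM1, and 8.51 and 9.77 CPM in EM3 (-1.71 and -1.90).

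For the signalling lists, the shares over all regions were again 2.73% higher and 6.02% lower. Of 168 TGF-beta pathway regions 2 were agreed and higher (1.19%) and 2 lower (1.19%). The lower 2 were a region inside SMAD3, the signal-carrying transcription factor, with 0.54 and 0.468 CPM in EM2, 7.39 and 3.83 CPM in EM1, and 4.86 and 5.54 CPM in EM3 (-3.44 and -3.34), and a region 35532 bp outside the ligand gene TGFB2 (-2.78 and -3.07). Wnt genes had 2 higher (1.71%) and 1 lower (0.855%) of 117 regions, AP-1 factors 1 (1.45%) and 2 (2.90%) of 69, and NF-kB and cytokine genes 0 and 1 (1.18%) of 85. EGFR family genes and ligands had 1 higher (2.08%) and 3 lower (6.25%) of 48 regions, stem and progenitor genes 2 (3.45%) and 3 (5.17%) of 58, and axon guidance genes 6 (4.2%) and 4 (2.80%) of 143. Hippo and TEAD genes had 2 higher (1.74%) and 9 lower (7.83%) of 115. RUNX factors and CBFB had 1 of each (4.76%) among 21. The lower 1, 3846 bp outside RUNX3, had 3.39 and 3.82 CPM in EM2, 10.4 and 10.5 CPM in EM1, and 10.9 and 11.7 CPM in EM3 (-1.53 and -1.64). Across all 22 lists the medians stood between -0.27 and 0.13, beside 0.0 and -0.01 for all regions.

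Interferon and antigen presentation genes had 2 agreed higher (2.99%, beside 2.73% of all regions) and 4 lower (5.97%, beside 6.02%) of 67 regions, so their shares were those of all regions. OAS1, an antiviral enzyme, had a region 1979 bp outside the gene at 2.70 and 4.13 CPM in EM2, 0.178 and 0.139 CPM in EM1, and 0.174 and 0.403 CPM in EM3 (4.36 and 3.64). Markers of blood cells had no agreed region among 25, and housekeeping genes had 1 higher (2.27%) among 44.

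The regions of TEK lay in a run of chromosome 9 where EM1 and EM3 had almost no signal. From 21591630 to 29333075, 29 consecutive regions had at most 3 counts summed over the 4 libraries of EM1 and EM3. In this run EM2 had 5751 counts (2983 and 2768), EM1 had 1 and EM3 had 9. The low counts of EM1 and EM3 are what defined the run, so they are a description. Against groups that did not define it, and scaled for library size, EM2 was 141-fold above Parental, which had 36 counts (95% exact interval 102 to 202), and stood at 0.968 of M1 (0.933 to 1.0), which had 5651. M2 had 10076 counts, with more than 3 in all 29 regions. E had 842 counts, 780 in replicate 1 and 62 in replicate 2, so its total rested mostly on replicate 1. These intervals cover counting error only.

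Within the run, the signal of EM2 began at 25677423. The 23 agreed higher regions reached from there to 29333075, and the first 5 regions of the run had no count in EM2 either. The nearest regions outside, at 21506843 and 31137155, had signal in all 3 clones. At TEK the EM2 and M1 patterns differed in detail: the region at 27219782 had 17.1 and 10.4 CPM in EM2 and 0.213 and 0.198 CPM in M1. Elsewhere such silent regions were rare. Of the 24 regions with at most 3 counts in EM1 and EM3 together and at least 30 in EM2, 22 were on chromosome 9. In the other direction, 24 regions had at most 3 counts in EM2 and at least 60 in EM1 and EM3, and these were spread over 11 chromosomes. The run and these limits were chosen after the values were seen.

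**Figure D3:**
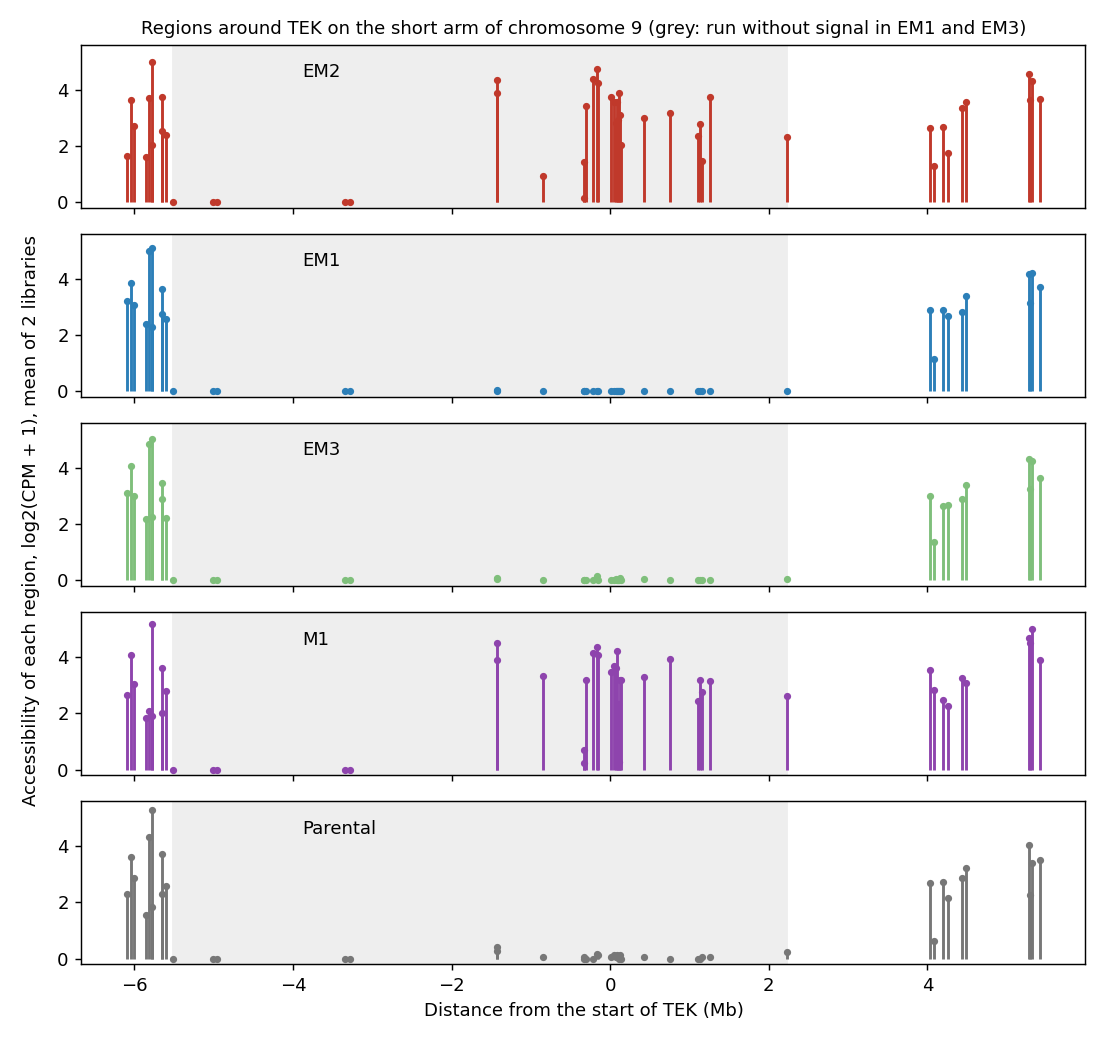
Accessibility of each region around TEK as log2(CPM + 1), the mean of 2 libraries, against the distance from the start of TEK in Mb, with a panel each for EM2, EM1, EM3, M1 and Parental. In the grey run of 29 regions EM1, EM3 and Parental lie at or near 0, and EM2 and M1 show signal from 25677423 on.

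Beyond single genes, agreed regions gathered in large stretches of some chromosomes. On chromosome 18, 15.8% of regions were agreed and lower in EM2, on chromosome 9 11.7% and on chromosome 5 10.4%, beside 6.02% overall. Agreed higher regions made up 7.81% of chromosome 7, 7.38% of chromosome 20 and 6.0% of chromosome 17, beside 2.73% overall. Of 302 windows of 10 Mb with at least 20 regions, 15 had a median change of -0.5 or less against each of EM1 and EM3, and 2 had a median of 0.5 or more. The lower ones included 6 of chromosome 18 (medians of -0.63 to -0.50 in EM2 versus EM1 or EM3), 190 to 200 Mb of chromosome 3 (-0.81 and -0.87) and 50 to 60 Mb of chromosome 5 (-1.02 and -1.11). The higher ones were 0 to 10 Mb of chromosome 20 (0.79 and 0.79) and 0 to 10 Mb of chromosome 17 (0.54 and 0.50). In EM2 versus Parental these 2 windows had medians of 0.08 and -0.07, so EM2 stood near Parental there. The 15 lower windows had medians of -1.3 to -0.18 in EM2 versus Parental.

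In comparison, the largest window median of EM3 versus EM1 was 0.29 in size. The 15 lower windows held 16.2% of the agreed lower regions and 3.81% of all regions, and the 2 higher windows held 7.14% of the agreed higher regions and 0.888% of all. With the median of each window removed, the regions of EM2 agreed against EM1 and EM3 changed in number: 1075 regions were agreed and higher and 3012 lower. Of the original agreed regions, 899 of 1793 higher and 2792 of 3961 lower were still called. The counts above therefore hold changes of whole stretches beside changes of single regions.

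**Figure D4:**
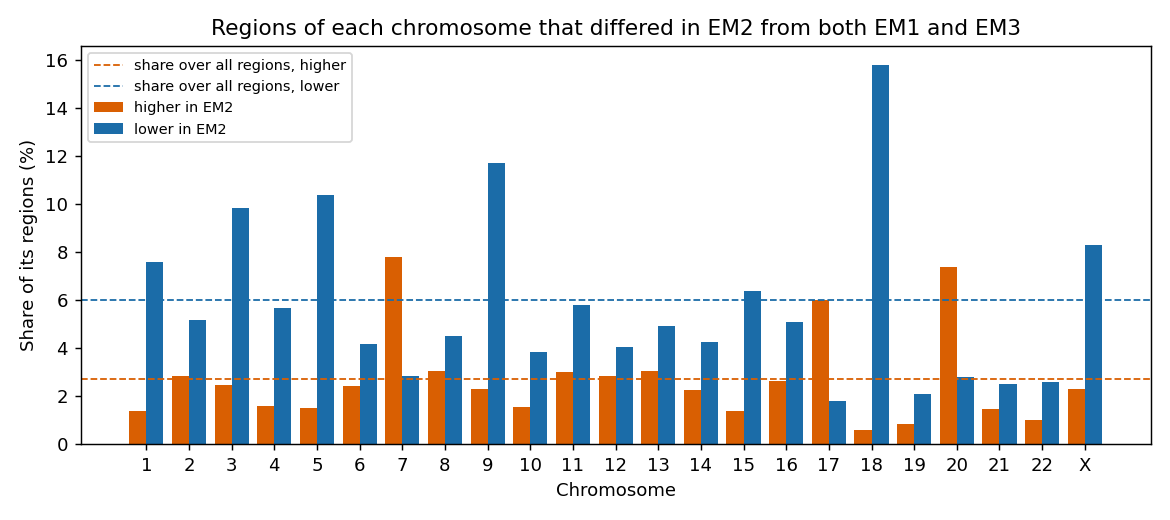
Share of the regions of each chromosome, in percent, that differed in EM2 from both EM1 and EM3, with bars for higher and lower regions and dashed lines for the shares over all regions (2.73% and 6.02%). Chromosome 18 has the largest share of lower regions (15.8%), and chromosomes 7, 20 and 17 have the largest shares of higher ones.

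Several genes had at least 5 agreed regions each, and were picked for this after the values were seen. Lower in EM2 were 7 of 9 regions of B4GALNT3, a glycosyltransferase, 7 of 8 of ZSWIM6, 6 of 7 of FRMD3, 6 of 11 of BMPER, a secreted regulator of BMP signalling, and 5 of 5 of GLYATL2. CPN2 (6 of 7), PLAAT1 (5 of 5), BDH1 (5 of 11) and PCYT1A (5 of 6) lie in the 190 to 200 Mb window of chromosome 3 that was lower throughout. Higher in EM2 were 8 of 10 regions of MYO18A, an unconventional myosin, 6 of 8 of SMOX, which oxidises spermine, 6 of 9 of RAB11FIP4, 5 of 7 of IGSF9B and 5 of 6 of GNAI2, a G protein subunit. SMOX lies in the higher window of chromosome 20, where the median of EM2 versus Parental was 0.08. The 10 Mb windows of the lower genes had medians of -0.39 and -0.47 for B4GALNT3, -0.35 and -0.38 for ZSWIM6, -0.41 and -0.47 for FRMD3, 0.01 and 0.03 for BMPER, and 0.0 and 0.07 for GLYATL2. Those of the higher genes had medians of 0.48 and 0.36 for MYO18A, 0.17 and 0.12 for RAB11FIP4, 0.29 and 0.31 for IGSF9B, and 0.11 and 0.06 for GNAI2.

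Higher and lower agreed regions sat at different kinds of places. A promoter window was overlapped by 620 of the 1793 higher regions (34.6%), by 138 of the 3961 lower regions (3.48%) and by 13.6% of all regions. The higher regions had a median width of 599 bp, the lower ones 382 bp and all regions 407 bp. Among regions of above-median signal, the promoter shares were 49.0% of the higher, 6.90% of the lower and 24.0% of all. This contrast moved with scaling by signal: with loess offsets, 18.5% of agreed higher and 5.86% of agreed lower regions overlapped a promoter window.

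The promoter-window regions took 28.5% and 28.5% of all counts in EM2, 24.4% and 24.9% in EM1, and 24.6% and 24.1% in EM3. The EM2 libraries were thus above those of EM1 and EM3 in the share of reads at promoters. The share was 26.2% in both Parental libraries, 26.5% and 26.9% in M1, 28.8% and 27.4% in E, and 29.0% and 30.8% in M2. EM1 and EM3 therefore had the lowest shares of the series. The part of this difference in the calls at promoters was not tested. In the 795 promoter windows at agreed higher regions the letters AACCNGTT occurred in 8 (1.01%), in the 170 at agreed lower regions in 9 (5.29%), and in all 11274 in 1.45%. For TGANTCA the shares were 3.65%, 6.47% and 5.07%, for CACCTG 15.2%, 23.5% and 18.1%, for GGAATG 9.18%, 10% and 10.3%, and for TGTGGT 7.80%, 10.6% and 9.48%. The median G and C content of these windows was 67.7% at higher, 63.3% at lower and 65.7% at all regions. A match of letters is a description of the sequence.

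The agreed regions were then read in clones outside the comparison, whose libraries EM2, EM1 and EM3 do not share. M1 versus Parental called 42.4% of all regions. In it, 43.4% of the agreed higher regions were higher and 7.81% lower, beside 19.0% and 23.4% of all regions. Of the agreed lower regions, 57.0% were lower in M1 and 12.6% higher. M2 versus Parental gave a like picture for the lower regions (59.5% lower, 18.9% higher, beside 34.9% and 32.1% of all), and for the higher regions 46.2% were higher and 22.4% lower. In E versus Parental, 15.7% of the agreed higher regions were higher and 17.4% of the agreed lower ones lower, beside 5.27% and 6.31% of all. Without E replicate 1 these shares were 9.31% and 10.3%, beside 1.97% and 3.18%. The 3 comparisons share the Parental libraries. The 15 windows of 10 Mb that were lower in EM2 also had medians below 0 in M1 versus Parental (-1.51 to -0.3). They held 16.2% of the agreed lower regions and 3.81% of all regions. The part of these stretches in the shares for M1 was not tested.

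The levels of the agreed regions are given as a description, since the regions were chosen by the difference of EM2 from EM1 and EM3 in these libraries. Agreed higher regions had a median of 24.0 CPM in EM2, 10.4 CPM in EM1, 10.5 CPM in EM3, 24.8 CPM in M1, 21.2 CPM in M2, 18.0 CPM in E and 14.8 CPM in Parental. Agreed lower regions had a median of 2.79 CPM in EM2, 10.7 CPM in EM1, 10.4 CPM in EM3, 3.09 CPM in M1, 2.44 CPM in M2, 6.25 CPM in E and 8.04 CPM in Parental. The medians of EM2 and M1 were close, and the choice of regions favours EM1 and EM3 levels far from that of EM2. Over all regions, EM2 correlated at 0.90 with Parental and 0.72 with M1, EM1 at 0.96 and 0.57, and EM3 at 0.93 and 0.62. EM2 versus Parental, which shares the EM2 libraries, called 9.19% of all regions. There, 39.0% of the agreed higher regions were called higher and 58.4% of the agreed lower regions lower, beside 3.02% and 6.17% of all.

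**Figure D5:**
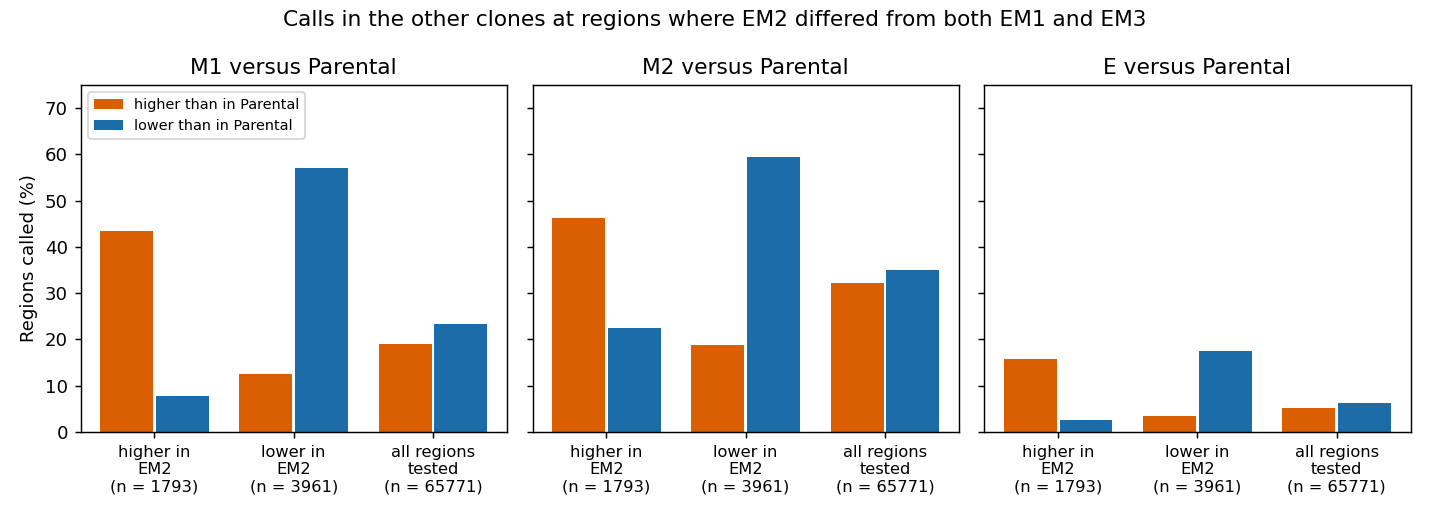
Percent of regions called higher or lower in M1, M2 and E versus Parental, for the regions higher in EM2 (n = 1793), the regions lower in EM2 (n = 3961) and all regions tested (n = 65771). In M1 the regions higher in EM2 were more often higher (43.4%) than lower (7.81%), and the regions lower in EM2 were more often lower (57.0%) than higher (12.6%).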

How the data were processed

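The 14 ATAC-seq libraries covered SUM149PT and its clones, 2 per group. The authors deposited raw counts of reads per region for all libraries, in a table of 65774 regions on hg38. The submitters' processing notes name, without settings, the aligner Bowtie2 2.2.6, the peak caller MACS2 2.1.1, featureCounts, Picard, deepTools, cutadapt 1.9.1 and bcl2fastq 2.20.0.422. The merging of regions, and any shift of reads for the transposase, are not given in the sources used here. Columns in the count table carry clone and replicate names that match the description of each sample. The names of the peak lists give clones other than those of the samples they are filed under, apart from 1 list, so the peak lists, and the interval file, were not used.

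Counts were tested in R 4.3.3 with the quasi-likelihood test of edgeR 4.0.16: TMM scaling, filterByExpr with a minimum count of 10 (3 regions removed), and 7 group means over 14 libraries. P-values were adjusted by Benjamini-Hochberg with a threshold of 0.05. Log2 changes were those of the fitted edgeR model. A prior count of 2 was used only for the log2 CPM behind the correlations and the removal of window medians. The test code was also run on simulated counts with changes at single regions and no shifts of whole stretches, so that run does not bear on such shifts. The outcome of the run is not reported here. Library totals ran from 8138944 to 16786823 counts. Intervals on ratios of counts are exact at 95% and cover counting error only.

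Regions were assigned to the nearest protein-coding gene end within 50 kb in a RefSeq table without strand (66.4% had one). The text names the 10 largest agreed rises and falls without overlap, up to 3 agreed regions of each of 22 gene lists, the gene-end region of each panel gene, and all regions of CDH1, ELF3 and TEK; others are named as chosen after values were seen. Some of the regions under this rule are not reported here. The members and lists were chosen with earlier results of these data known. Alternatives were library totals, size factors and the Wald test of DESeq2 1.42.0, loess offsets, no filter, a log2 limit of 1, a replicate block, a fit of the 6 EM libraries, removal of the median of each 10 Mb window, and leaving out single libraries.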

Additional observations from a re-analysis of the deposited data

How the results depend on the processing

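With the replicate number as a block, calls numbered 13937 in EM2 versus EM1 (8030 without it), 13316 in EM2 versus EM3 (7741), 10160 for EM2 agreed against EM1 and EM3 (5754), 17566 for EM2 against the mean of EM1 and EM3 (11236), 161 in EM3 versus EM1 (31), 13107 in E versus Parental (7610) and 10811 in EM2 versus Parental (6043). The numbers are not said to mark a shared culture or day. The deviations of same-numbered libraries correlated at 0.44 (EM2 and EM1), 0.52 (EM2 and EM3) and 0.59 (EM1 and EM3), and 2 numbers per clone do not establish a pairing. Leaving out single libraries gave 3350 to 9611 calls in EM2 versus EM1, 2834 to 9349 in EM2 versus EM3, 2297 to 6874 for EM2 agreed against EM1 and EM3, 4110 to 13163 for EM2 against the mean of EM1 and EM3, 6 to 85 in EM3 versus EM1, 1235 to 9269 in E versus Parental and 2173 to 3880 in EM2 versus Parental. EM3 versus EM1 also gave 220 calls with the DESeq2 Wald test and 6 with only the 6 EM libraries, and EM2 against the mean of EM1 and EM3 gave 7055 with an absolute log2 change of at least 1. The cause of these moves was not tested. M1 versus Parental and M2 versus Parental stayed within 1.5 times their counts under all settings run. Of 3720 recomputed values of the 124 named regions, 3383 kept their side of the threshold, 314 were no longer called, 23 were newly called and 0 changed direction. Of the 87 agreed named regions, 40 were called in all 15 settings. With 2 libraries a clone, changes near the threshold are the least secure.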
